A study of Mus musculus with 8 samples.

Results

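Apol9a and Apol9b, the mouse apolipoprotein L9 genes, were followed through the response of IEC10 cells to a type III and a type I interferon. All probes that the array design names Apol9a or Apol9b were taken, 3 of the 39429 probes on the array. They were chosen for description because these genes had a strong response in the same arrays, so their levels and differences are a description, and no test of that response is used as evidence. Of the 3 probes, 2 carry the name Apol9a and 1 the name Apol9b. All 3 were well above background on all 8 arrays, and all were among the 25579 probes that entered the fit across the array.

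IEC10 is an immortalized mouse intestinal epithelial cell line. The cells had been grown on transwell inserts for 21 days, in which they form a polarized layer, and were then left untreated (control, 2 arrays, in medium per the labels and with PBS per the study) or stimulated for 9 h with 20 ng/mL IFN-λ2 (3 arrays) or with 500 U/mL IFN-β (3 arrays). The groups thus share the line, the culture and the time, and differ in the cytokine. One line was used, at 1 dose of each cytokine, and the doses are in different units.

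Apolipoprotein L proteins are a family of lipid-binding proteins that, unlike the apolipoproteins of blood lipoproteins, mostly act inside the cell. Apol9a and Apol9b are close copies of one another, are known as interferon-stimulated genes, and have been linked to restriction of a picornavirus and to binding of phosphatidylethanolamine. Type I and type III interferons bind different receptors, but both lead to a transcription factor complex that contains STAT2 and IRF9 and binds the interferon-stimulated response element in the promoters of such genes.

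The probe sequences show how far the array can tell the copies apart. The first 30 bases of the 3′ probe of each gene are printed because every difference between the probes lies there, with the differing bases in capitals.
Apol9a 3′ probe: agccCacGcccatcctcaggcatgtcatTg
Apol9b 3′ probe: agccGacAcccatcctcaggcatgtcatGg
Counted from 1 at the 5′ end of the probe, and with the base of Apol9a first, the differences are C5G, G8A and T29G. The probes are 60 bases long and identical at 57 positions (95%), including an unbroken run of 31 bases. In the mm9 coordinates of the array files, the Apol9a probe lies on the minus strand of chr15:77234221-77234280 and the Apol9b probe on the plus strand of chr15:77566751-77566810. The remaining probe is named Apol9a but lists 2 transcripts of Apol9a and 2 of Apol9b, and is printed whole because it is the one that both genes share.
Shared probe: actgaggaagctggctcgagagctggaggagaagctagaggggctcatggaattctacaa
It lies on the minus strand of chr15:77234673-77234732, upstream of the 3′ probe on the Apol9a transcript. Exon and UTR annotation on mm9 was not used here. No other probe among 39426 shares a run of 25 bases with any of the 3, on either strand. With 3 differences in 60 bases, how much of each 3′ signal comes from the other copy cannot be told apart on these arrays, so the 3 probes are read as readouts of the Apol9 pair rather than of 2 separate genes.

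The sequence upstream of the genes is printed because both promoters carry the same motif in the same setting. Each line holds the 250 bases before the most upstream annotated start in the RefSeq promoters of GRCm38.p6, 5′ to 3′ along the gene, and the capitals mark matches to GAAANNGAAA, the core of the interferon-stimulated response element, searched on both strands.
Apol9a: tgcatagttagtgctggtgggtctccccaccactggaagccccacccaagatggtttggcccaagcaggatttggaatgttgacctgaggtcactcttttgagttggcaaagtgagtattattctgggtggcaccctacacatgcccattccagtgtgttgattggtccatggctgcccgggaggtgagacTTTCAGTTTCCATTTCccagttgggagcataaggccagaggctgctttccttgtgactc
Apol9b: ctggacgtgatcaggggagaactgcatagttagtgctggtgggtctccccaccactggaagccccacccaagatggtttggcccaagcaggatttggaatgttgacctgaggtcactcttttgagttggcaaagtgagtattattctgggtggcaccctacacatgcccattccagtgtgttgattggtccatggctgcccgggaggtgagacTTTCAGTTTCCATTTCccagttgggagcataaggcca
The Apol9a stretch is chr15:77411081-77411330 on the minus strand and the Apol9b stretch is chr15:77728822-77729071 on the plus strand. Shifted by 22 bases against each other, they were identical at all 228 shared positions. Each holds 2 overlapping matches on the reverse strand, 16 bases in all, which begin 59 bases before the annotated start of Apol9a and 37 before that of Apol9b. The motif is present in 3.44% of the 32851 promoter windows of 300 bases, from 250 before to 50 after a start.

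The Apol9 signal was lowest in control cells, highest with IFN-λ2 and between these with IFN-β, and the order was the same for the 3 probes. Signals are in the units of the deposited table, in which the 75th percentile of each array was set to 1500 and values under 15 were set to 15. The 3′ Apol9a probe read 2718 and 1963 units on the control arrays, 53319, 57149 and 54260 with IFN-λ2, and 30263, 32028 and 31843 with IFN-β. The arrays of the 3 groups did not overlap, and the gap between neighbouring groups was many times the spread within them. The means were 2340 ± 534 units (SD, n = 2) in control cells, 54909 ± 1996 (n = 3) with IFN-λ2 and 31378 ± 970 (n = 3) with IFN-β.

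The 3′ Apol9b probe read 2544 and 1899 units on the control arrays, 55181, 57240 and 55846 with IFN-λ2, and 30614, 33044 and 32509 with IFN-β. Its means were 2222 ± 456, 56089 ± 1051 and 32056 ± 1277 units in that order. The shared probe, which was dimmer throughout, read 210 and 184 units on the control arrays, 4754, 5210 and 4302 with IFN-λ2, and 2934, 2678 and 2759 with IFN-β, with means of 197 ± 18.5, 4755 ± 454 and 2790 ± 131 units. For both of these probes, too, every IFN-λ2 array lay above every IFN-β array, and every IFN-β array above both controls. Across all probes tested, 26.5% had every IFN-λ2 array above both controls, 14.6% every IFN-β array above both controls, and 17.9% every IFN-λ2 array above every IFN-β array.

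**Figure D1:**
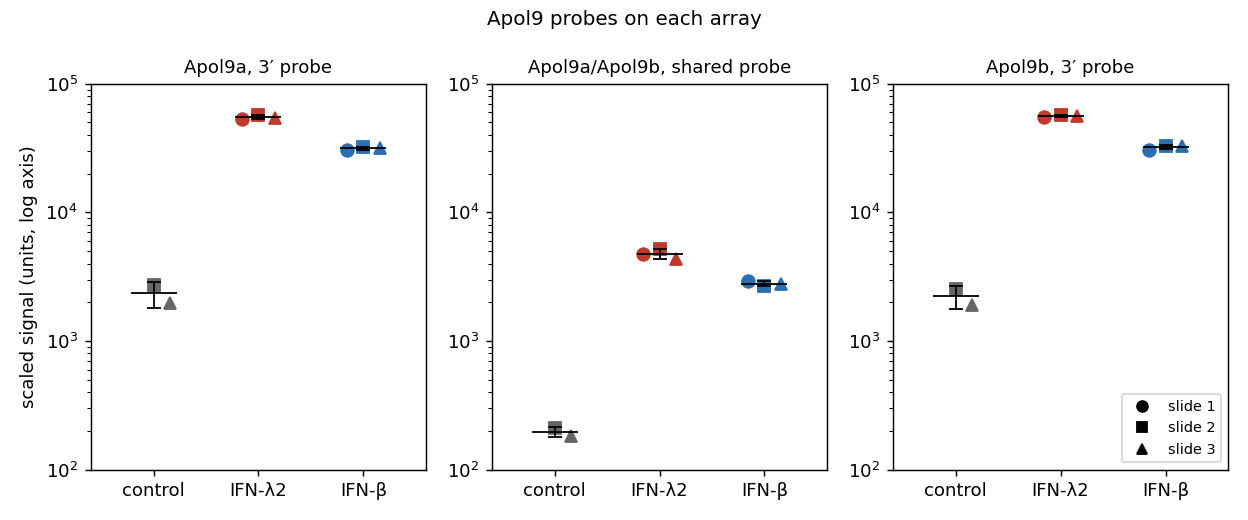
Scaled signal of the 3 Apol9 probes on each of the 8 arrays, on a log axis, with 1 panel per probe. Symbols mark the slide, horizontal bars the group mean and error bars the SD (n = 2 for control, n = 3 for each cytokine); in each panel the control arrays lie lowest and the IFN-λ2 arrays highest, with no overlap between groups.

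On the log2 scale, the IFN-λ2 arrays lay above control by 4.57 (SE 0.13) for the 3′ Apol9a probe, 4.67 (SE 0.12) for the 3′ Apol9b probe and 4.59 (SE 0.11) for the shared probe. These differences correspond to 23.8-fold, 25.5-fold and 24.1-fold over control. With IFN-β the differences were 3.76, 3.87 and 3.82, or 13.6-fold, 14.6-fold and 14.2-fold, with the same standard errors. Among all probes tested, ordered from the largest increase, the Apol9 probes held ranks 15, 17 and 19 for IFN-λ2 and ranks 16, 22 and 26 for IFN-β. All 3 had an adjusted p under 0.05 and a difference of at least 2-fold against control with either cytokine, as had 2.74% of probes (701) for IFN-λ2 and 0.907% (232) for IFN-β. By a per-probe 2-group test, which shares no variance across probes, after adjustment 3 of the 3 were called with IFN-λ2 and 2 with IFN-β (not the 3′ Apol9a probe). As the genes were selected on this response, nothing is read from these counts. In the opposite direction, 1.11% of all probes were called lower with IFN-λ2 and 0.0274% with IFN-β (7 probes, or 69 and 71 without control replicate 2 or 3).

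Set against each other, IFN-λ2 gave the higher Apol9 signal, by 0.81 on the log2 scale (SE 0.12 and 0.11) for the 3′ probes of Apol9a and Apol9b and by 0.77 (SE 0.10) for the shared probe. This is 1.75-fold, 1.75-fold and 1.70-fold, under the 2-fold mark. Between the cytokines, 1.47% of all probes were called higher under IFN-λ2 and 0.712% higher under IFN-β. By this difference the Apol9 probes ranked 682, 684 and 747 from the top of the array. The doses are in different units. Per the study's results, both doses gave a similar, submaximal induction of a reference gene (Mx2) in these cells. The difference belongs to these doses at 9 h.

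Arrays with the same replicate number lay together on 1 slide, and the differences can therefore also be read within a slide. For IFN-λ2 against control, the 2 slides with a control array gave 4.39 and 4.79 for the 3′ Apol9a probe, 4.49 and 4.88 for the 3′ Apol9b probe and 4.63 and 4.55 for the shared probe. The control array of slide 2 read higher than that of slide 3 for the 3 probes. For IFN-β against control the same slides gave 3.56 and 4.02, 3.70 and 4.10, and 3.67 and 3.91, in that order of probes. For IFN-λ2 against IFN-β, the 3 slides gave 0.82, 0.84 and 0.77 for the 3′ Apol9a probe, 0.85, 0.79 and 0.78 for the 3′ Apol9b probe and 0.70, 0.96 and 0.64 for the shared probe. IFN-λ2 thus read higher than IFN-β on 3 of 3 slides for the 3 probes. Of all probes tested, 17.9% met the stricter mark of every IFN-λ2 array above every IFN-β array. Nothing is read from the count of slides. A given treatment always took the same place on the slide, so place and treatment cannot be told apart.

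The 3 probes were also compared in the size of their response, which the choice of the genes did not use. In 9 exact two-sided permutation tests over arrays, of the difference between 2 probes in each of the 3 comparisons, the adjusted p was 0.9 or 1 (Benjamini-Hochberg). The 3′ Apol9a probe differed from control by 0.10 less than the 3′ Apol9b probe with IFN-λ2 and with IFN-β, with an unadjusted exact p of 0.2 in both, the smallest that 3 arrays against 2 allow. Between the cytokines, these probes differed in response by less than 0.01 (exact p = 1). With these numbers of arrays none of the 9 tests could have passed 0.05, as the smallest p possible is 0.2 against control and 0.1 between the cytokines, so they do not show that the copies respond alike. More arrays would not mend this, as the 3′ probes are identical at 57 of 60 positions and the remaining probe lists both genes.

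The other apolipoprotein L genes were measured on the same arrays. Outside Apol9, and leaving out the pseudogene Apol10c-ps, the array held 11 probes of 9 family genes, of which 5 probes entered the fit and 6 were not well above background on any array (single probes of Apol6, Apol7c, Apol10a and Apol11b and the second probes of Apol7a and Apol10b). By limma with Benjamini-Hochberg adjustment over all probes, 2 of the 5 were called higher with IFN-λ2, 1 with IFN-β and 1 with IFN-λ2 over IFN-β, and none lower. Over all probes tested, 2.74%, 0.907% and 1.47% were called higher, in that order. At an unadjusted p under 0.05, 4, 4 and 3 of the 5 were higher and 0 lower. The shares of all probes were 18.3%, 6.79% and 13.1% higher and 15.4%, 5.20% and 12.6% lower. Apol7a, described below, is in all of these higher counts and in the medians. Its probe had to differ from control, so nothing is read from the counts against control. The median log2 difference of the 5 was 0.53 with IFN-λ2 and 0.41 with IFN-β, against 0.01 over all probes with either cytokine. The IFN-λ2 median was 0.33 for the tested neighbours outside the family, 0.35 for secreted apolipoproteins and 0.32 for prohibitins. Their IFN-β medians were 0.11, 0.18 and 0.10, in that order.

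Apol7a is the nearest gene to Apol9a on one side. Its brighter probe sat at the floor of 15 units on both control arrays and was not well above background there. It read 152, 97.6 and 125 units with IFN-λ2 and 54.3, 39.9 and 41.0 with IFN-β. These levels were at least 7.44-fold over control with IFN-λ2 and at least 2.70-fold with IFN-β. The probe passed the filter on low values through the stimulated arrays alone and so had to differ from control, and nothing is read from its calls against control. With both cytokines above background, IFN-λ2 exceeded IFN-β by 1.46 on the log2 scale (SE 0.18, 2.76-fold, adjusted p = 0.0037). The IFN-β call was lost without either control array and without the filter on dim probes, where the fitted difference stayed at 1.57, and under normexp background correction (0.60) or a floor of 50 units (0.04), where it did not.

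Apol10b was the other family gene called. It read 27.6 and 21.1 units in control cells, 51.6, 51.1 and 49.8 with IFN-λ2, and 47.6, 38.1 and 34.6 with IFN-β. The difference of 1.07 (SE 0.16, adjusted p = 0.0049) for IFN-λ2 was past the threshold, but the call was lost under normexp background correction (0.63), with a floor of 50 units (0.03, adjusted p = 0.26) and without control replicate 3 (0.88). The 0.72 for IFN-β was not past it (adjusted p = 0.11). Apol7b and Apol8 differed by 0.51 and 0.53 with IFN-λ2 (adjusted p = 0.018 and 0.048), both under 2-fold. Apol7e lay at or near the floor in every group, at 15 to 20.4 units. Whether these genes differ from Apol9 in response was not tested.

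The motif of the Apol9 promoters was not limited to them. Of 11 family genes with a promoter window in the RefSeq table, 8 held it, namely Apol7c, Apol7e, Apol9a, Apol9b, Apol10a, Apol10b, Apol11a and Apol11b, and 3 did not (Apol7a, Apol7b and Apol8). Over all 27025 genes with a window, 3.99% held it. Some family windows are near copies of one another, such as those of Apol11a and Apol11b, so the 8 are not independent. The 30 bases around the matches are printed for Apol9a, where they are the same as in Apol9b, beside Apol10b, which was called with IFN-λ2, and Apol7e, which was not called with either cytokine.
Apol9a: gaggtgagacTTTCAGTTTCCATTTCccag
Apol10b: gaaattttacTTTCATTTTCgtgcactgag
Apol7e: accttggggcTTTCTCTTTCGTTTTCtgct
Apol9a and Apol7e both carry overlapping matches and Apol10b a single one. A match is only a match of letters, and whether the motif has a part in any response was not tested.

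The genes around Apol9 on the chromosome gave no call outside the family. In the RefSeq gene order of GRCm38.p6, Apol9a lies between Apol7a and Apol7b, Apol9b lies between Apol7e and Apol8, and 7 protein-coding genes, all of the family, lie between the Apol9 genes. Within 250 kb of an Apol9 probe in mm9 there were 23 other probes, of which 14 were tested. The 9 that were not include those of Gm8221, LOC100046269 and the pseudogene Apol10c-ps, all at the floor of 15 units. Of 9 tested probes that are not of the family, among them 2 that carry only a transcript identifier (0.45 and -0.06 with IFN-λ2, adjusted p = 0.059 and 0.87), limma called 0 with either cytokine against control or between them, and the per-probe 2-group test after adjustment also 0. At an unadjusted p under 0.05, 6 were higher and 1 lower with IFN-λ2, 2 higher with IFN-β, and between the cytokines 2 were higher and 2 lower under IFN-λ2. Over all probes tested, 18.3% were higher and 15.4% lower at that threshold with IFN-λ2. The shares were 6.79% and 5.20% for IFN-β and 13.1% and 12.6% between the cytokines. Txn2, a mitochondrial thioredoxin, differed by 0.48 with IFN-λ2 (adjusted p = 0.0036), under 2-fold, and Myh9, a non-muscle myosin heavy chain next to the family cluster, by 0.46 (adjusted p = 0.023). Eif3d, a translation initiation factor subunit, differed by 0.33 (adjusted p = 0.019), and the 2 probes of Foxred2 by 0.34 and 0.30 (adjusted p = 0.030 and 0.13). The 2 probes of Gm6506, which lies within the cluster, read lower by 0.09 and 0.26 with IFN-λ2 (adjusted p = 0.44 and 0.092).

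**Figure D2:**
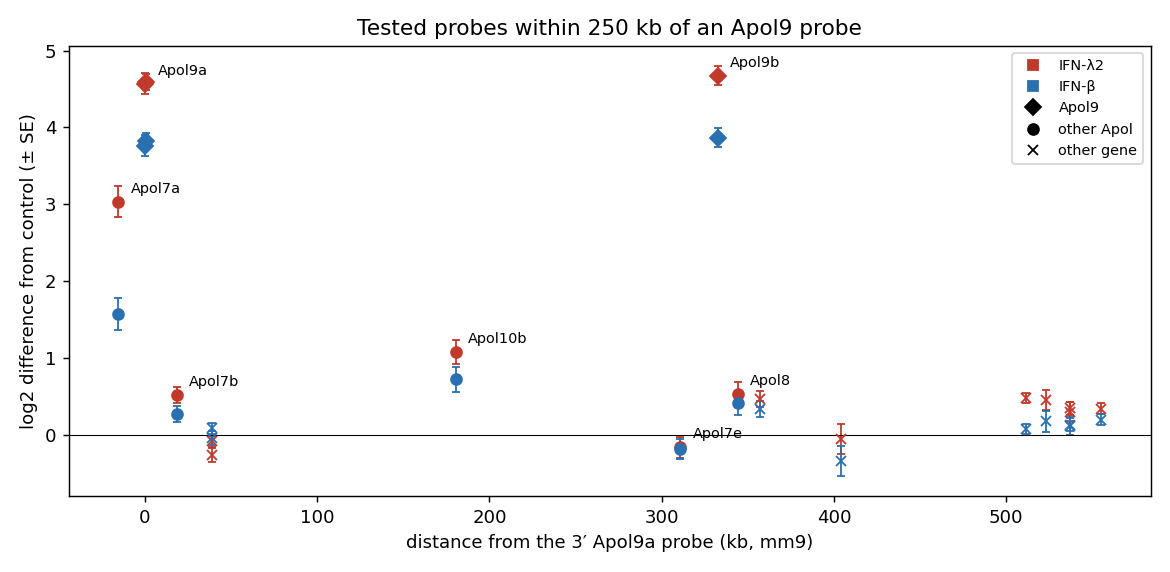
Log2 difference from control (± SE) with IFN-λ2 (red) and IFN-β (blue) for each tested probe within 250 kb of an Apol9 probe, against the distance in kb from the 3′ Apol9a probe. Diamonds are Apol9, circles other Apol genes and crosses other genes; the Apol9 probes lie between 3.76 and 4.67, Apol7a at 3.03 with IFN-λ2 and 1.57 with IFN-β (fitted values against control arrays at the floor), and the crosses within 0.5 of zero.

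The pathway that drives such genes was measured on the same arrays. Of 12 probes of 10 interferon signalling genes, all tested, limma called 4 higher with IFN-λ2, the same 4 higher with IFN-β, and 0 lower with either. Over all probes tested, 2.74% were called higher and 1.11% lower with IFN-λ2, and 0.907% and 0.0274% with IFN-β. At an unadjusted p under 0.05, 4 signalling probes were higher and 0 lower with either cytokine. The shares of all probes were 18.3% and 15.4% with IFN-λ2 and 6.79% and 5.20% with IFN-β. The per-probe 2-group test after adjustment called 4 with IFN-λ2 but 1 with IFN-β. Over the whole list the median log2 difference was -0.02 with IFN-λ2 and 0.04 with IFN-β, as most of its members are receptors and kinases.

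The 4 that rose are 2 transcription factors and 2 feedback inhibitors. Usp18, which removes ISG15 and restrains signalling at the type I receptor, read 4360 and 3247 units in control cells, 51952, 53124 and 50345 with IFN-λ2 and 42165, 46754 and 44710 with IFN-β. Its increases were 3.78 (adjusted p = 4.4e-06) and 3.56 (adjusted p = 9.2e-06). Stat2 rose by 2.17 and 1.73 and Irf9 by 2.01 and 1.93, in the same order, with adjusted p-values of at most 0.00037. Socs1, an inhibitor of Janus kinases, rose by 1.78 and 1.51 (adjusted p = 0.00010 and 0.00045).

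The receptor and kinase genes were not called with either cytokine. Ifnlr1, the specific chain of the IFN-λ receptor, read 3101 ± 507 units in control cells, 3033 ± 182 with IFN-λ2 and 2720 ± 250 with IFN-β. For Ifnlr1, Il10rb (its second chain), the brightest probe of Ifnar1, Ifnar2 (the type I receptor), Jak1 and Tyk2, the differences from control lay between -0.28 and 0.15 on the log2 scale, with adjusted p of at least 0.30.

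Between the cytokines, 0 signalling probes were called, by limma or by the per-probe 2-group test, and at an unadjusted p under 0.05 there were 2 higher and 1 lower with IFN-λ2. Of 12 probes this is near the 13.1% higher and 12.6% lower over all probes, and nothing is read from it. Stat2 differed by 0.44 (SE 0.11, adjusted p = 0.047) and Usp18 by 0.22 (SE 0.11, adjusted p = 0.27), beside 0.77 to 0.81 for the Apol9 probes. Whether these differences are themselves different was not tested.

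**Figure D3:**
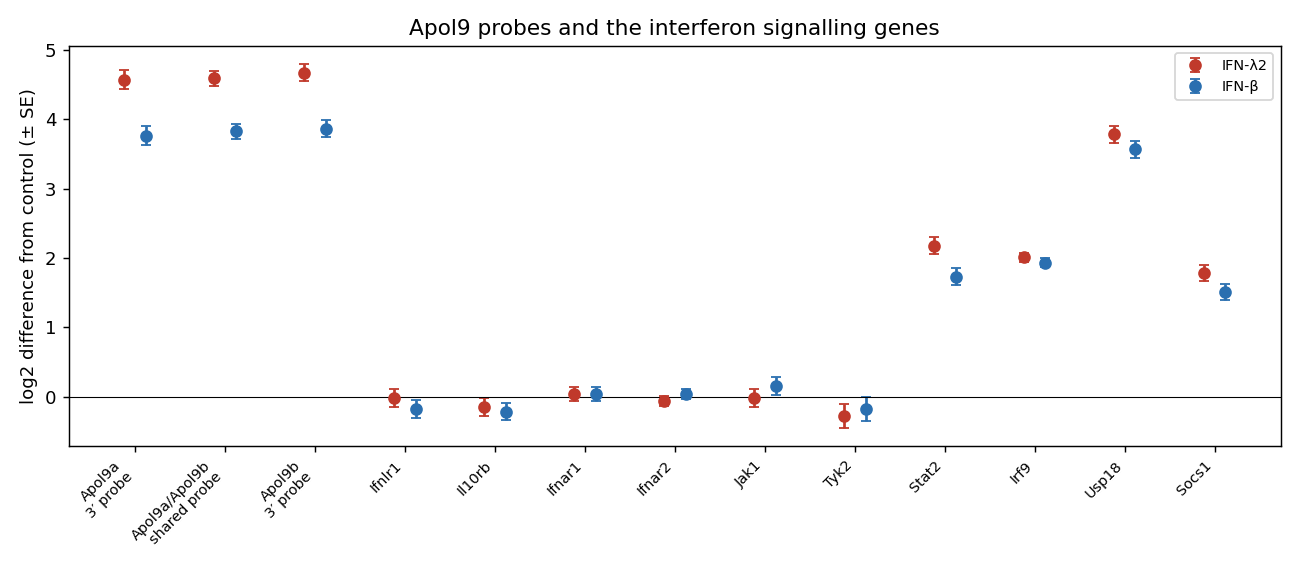
Log2 difference from control (± SE) with IFN-λ2 (red) and IFN-β (blue) for the 3 Apol9 probes and for the brightest probe of each of 10 interferon signalling genes. The receptor and kinase genes lie near zero, Stat2, Irf9 and the inhibitor genes between 1.51 and 3.78, and the Apol9 probes between 3.76 and 4.67.

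Apol9 was next placed among the genes that both cytokines raised. In all, 219 probes were called higher with IFN-λ2 and with IFN-β against the same controls, the 3 Apol9 probes among them. Of the other 216, 177 read higher under IFN-λ2 than under IFN-β and 39 lower. Their median log2 difference between the cytokines was 0.22, with quartiles of 0.07 and 0.65, so the 0.77 to 0.81 of Apol9 lay above the upper quartile. Of these probes, 45 were above the highest Apol9 value and 170 below the lowest.

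**Figure D4:**
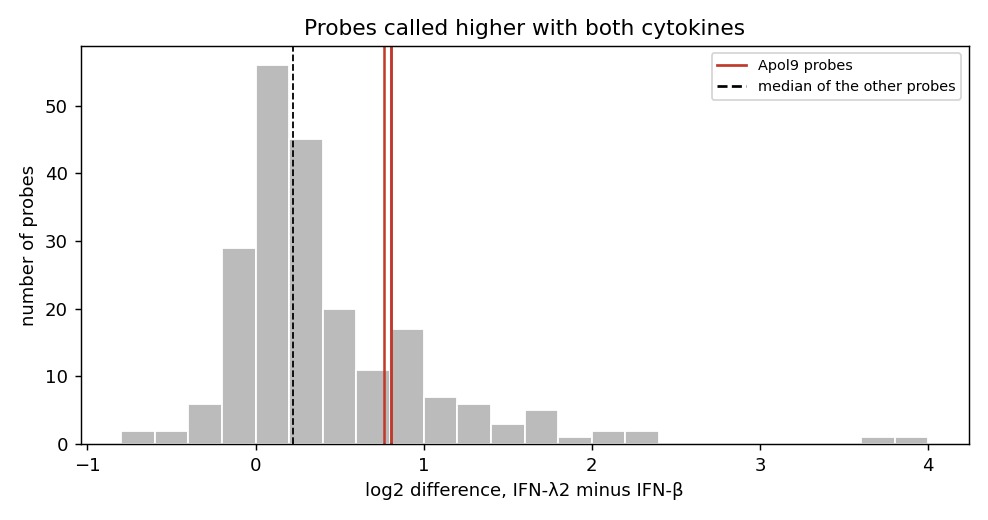
Histogram of log2 differences (IFN-λ2 minus IFN-β) for the other 216 probes called higher with both cytokines; the y axis is the number of probes. Red lines mark the Apol9 probes (0.77 to 0.81) and the dashed line the median of the other probes (0.22).

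The 5 probes whose pattern over the 8 arrays was most like that of Apol9 were of genes known from the interferon response. Likeness was the Pearson correlation of log2 signal with the mean of the Apol9 probes, among 20245 probes. The arrays fall into 3 groups, so that r mainly reads the differences between groups, 61 probes had r above 0.99, and the sixth in order was at 0.9986. The first 5 were Tgtp2 and Iigp1, interferon-inducible GTPases, Dhx58, a regulator of RNA sensing by RIG-I-like receptors, Mx1, a dynamin-like antiviral GTPase, and Oas2, an oligoadenylate synthetase, with r from 0.9988 to 0.9995. Tgtp2, the first, read 2593 and 2194 units in control cells, 43456, 42598 and 42281 with IFN-λ2 and 24595, 27121 and 26847 with IFN-β. Its increases were 4.16 and 3.46, and 0.71 between the cytokines. Dhx58 rose by 5.03 and 4.30, Iigp1 by 4.55 and 3.69 and Mx1 by 4.90 and 3.92, and Oas2, with the steepest response of the 5, by 6.61 and 5.22. Their differences between the cytokines ran from 0.71 to 1.39.

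The secreted apolipoproteins and the prohibitins were read as related lists. Of 19 secreted apolipoprotein probes, 10 were tested. With IFN-λ2 limma called 0 of them (6 higher and 1 lower at an unadjusted p under 0.05, beside the 18.3% and 15.4% of all probes given above, and 0 by the per-probe 2-group test), and the largest differences were those of Apoh (0.91, adjusted p = 0.0033), Apod (0.64, adjusted p = 0.015) and Apom (0.44, adjusted p = 0.041). Without control replicate 3, Apoh was called (1.11, adjusted p = 0.0027). With IFN-β 1 was called, the lipocalin Apod, by 1.08 (adjusted p = 0.0064), a call lost under normexp background correction (0.52, adjusted p = 0.31), with a floor of 50 units (0.79), without either control array (1.06 and 1.10), without IFN-β replicate 1 (0.99) and in a fit of the 2 groups alone. Phb and Phb2, the mitochondrial prohibitins, of which Phb has been described as a partner of Apol9, had 4 tested probes and 0 calls. The Phb probes differed by 0.42 and 0.45 with IFN-λ2 (adjusted p = 0.038 and 0.0083) and the Phb2 probes by 0.20 and 0.23 (adjusted p = 0.15 and 0.17). At an unadjusted p under 0.05, 2 prohibitin probes were higher with IFN-λ2 and 0 with IFN-β, beside 18.3% and 6.79% of all probes. Calls took in 2.74% of all probes as higher with IFN-λ2 and 0.907% with IFN-β. The per-probe 2-group test called 0 of them.

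Marker genes were read on the same arrays. Of 11 probes of 10 epithelial markers, 10 were well above background on all arrays, among them Krt8, Krt18, Krt19, Krt20, Cdh1 and Epcam. With IFN-λ2, Krt20, Cdh1 and Krt19 were higher by 0.74, 0.45 and 0.42 (adjusted p = 0.0027, 0.026 and 0.020) and the 2 probes of Cldn4, a tight junction protein, lower by 0.52 and 0.42 (adjusted p = 0.0082 and 0.037), all under 2-fold. The part of these in the Apol9 values was not tested. The villus gene Vil1 was low (58.5 units in control cells) and Cdx2, an intestinal transcription factor, was not well above background on any array. The defining stromal markers Pdgfra, Pdgfrb and Col3a1 and the endothelial Cdh5 were not above background on any array, and Ptprc, the pan-leukocyte gene, on 2. Other markers of these cells were detected: Cd3e (164 units in control cells) and Cd68 (43.1) on all 8 arrays, the endothelial Pecam1 on 7, and the fibroblast genes Col1a1 and Dcn on 4 and 1. The summed signal of the 9 leukocyte probes ranged from 5711 to 7948 units in control cells, from 2252 to 3765 with IFN-λ2 and from 2908 to 10122 with IFN-β, nearly all of it from 1 Itgam probe. Of the 2 probes of Kdr, an endothelial receptor, the brighter was not called with IFN-λ2 (means of 786 units in control cells and 756 with IFN-λ2, adjusted p = 0.81) and the dimmer was called higher (119 and 364 units). The part of either in the Apol9 values was not tested. Fewer responding cells and less RNA per cell cannot be told apart in such bulk samples.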

How the data were processed

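RNA of 8 IEC10 samples was hybridised to 1-color Agilent arrays, which the authors scanned with Feature Extraction 10.7.3.1 (per the submitters' processing notes). The authors deposited the intensity of every feature and a table of scaled intensity values, which is linear: each array's 75th percentile, as its file gives it, was brought to 1500 and values under 15 were raised to 15. The same factor was used here, and the Apol9 values equal the deposited ones. The labels name Trizol for RNA extraction and the study's methods a column kit.

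Outlier features, features outside 1.42 times the interquartile range of their copies and features with a pixel coefficient of variation over 0.5 were left out (313 to 424 of 43020 per array). A total of 20991 to 24252 probes per array were well above background, none was saturated, and the number of arrays limits the precision. Probes above 15 units on at least 2 arrays were kept, and 3 group means were fitted to log2 values with limma 3.58.1 (R 4.3.3), with Benjamini-Hochberg adjustment. A call needs an adjusted p under 0.05 and 2-fold. For a gene with several probes the brightest is given. In simulated data with 200 probes shifted by 2 on the log2 scale, the fit over 25579 probes recovered 178 for IFN-λ2 against control, 184 for IFN-β against control and 188 between the cytokines. Python 3.11.15 with pandas 2.3.3 and scipy 1.17.1 was used for the rest.

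Named were every Apol9 and Apol family probe, the signalling and prohibitin genes, the 3 secreted apolipoprotein probes with the largest IFN-λ2 difference, tested neighbours within 250 kb and the 5 most alike probes; unnamed probes of unassigned transcripts are counted only. One gene of the signalling list is not reported here. Members and lists were chosen with earlier results of these data known. Nothing states that replicates were separate cultures, so p-values measure the spread between these samples, which may be technical. Arrays of 1 replicate number shared a slide and a scan. The deviations of IFN-λ2 and IFN-β arrays of the same number correlated at 0.19, 0.25 and 0.30, while those with control arrays ran from -0.08 to 0.10. A control replicate 1 was not analysed here. Gene names and promoters are those of RefSeq (GRCm38.p6), with promoter windows for 11 family genes, and probe coordinates those of the files (mm9). The alternatives were other background, floor, filter and normalization settings, a replicate block, 2-group fits, a per-probe 2-group test with equal variances (the study's methods name a two-group analysis, but not its test) and leaving out each array.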

Additional observations from a re-analysis of the deposited data

How the results depend on the processing

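The Apol9 differences kept their direction under every setting tried. With a replicate block they were 4.57 to 4.70 for IFN-λ2 against control, 3.79 to 3.89 for IFN-β against control and 0.77 to 0.81 between the cytokines, and the block changed no count of calls by more than 1.5 times. Against control, the values of the 3′ probes moved most with the control arrays. Between the cytokines they moved most with quantile normalization (0.77 for both). Leaving out 1 array at a time gave, for IFN-λ2 against control, 4.34 to 4.81 (3′ Apol9a probe) and 4.46 to 4.88 (3′ Apol9b probe), and for IFN-β against control 3.53 to 4.0, 3.65 to 4.08 and, for the shared probe, 3.73 to 3.92. All these extremes came from leaving out control replicate 2 (highest) or control replicate 3 (lowest). With normexp background correction the shared probe, the dimmest of the 3, differed by 4.22 with IFN-λ2 and 3.49 with IFN-β, a larger shift than from leaving out any array.

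Of the other apolipoprotein L probes called higher, 1 was called for IFN-λ2 under normexp and under a floor of 50 units, and 1 to 2 when single arrays were left out (1 without control replicate 3). For IFN-β, 0 were called under normexp, a floor of 50 units or no filter on dim probes, and 0 to 1 when single arrays were left out (0 without either control array). By the per-probe 2-group test after adjustment 1 was called for IFN-λ2 and 0 for IFN-β, and of the 4 signalling probes 4 and 1. The genes concerned in the family, Apol7a and Apol10b, were both dim in control cells. The counts over all probes moved more. For IFN-λ2 against control the per-probe 2-group test gave 305 higher and 62 lower at an unadjusted p of 0.001, and 145 lower after adjustment, while normexp gave 68 lower and a floor of 50 units 169. For IFN-β against control the per-probe test gave 76 higher and 2 lower after adjustment and 3 lower unadjusted, the 2-group fit gave 3 lower, and normexp, the floor of 50 units and no filter gave 1 each. Leaving out single arrays gave 2 to 71 lower (69 without control replicate 2, 71 without control replicate 3, 4 without IFN-λ2 replicate 1, 2 without IFN-β replicate 2). For IFN-λ2 against IFN-β, 247 were higher with the floor of 50 units and 205 by the unadjusted per-probe test. For the same comparison 32 were lower under normexp, 98 with the floor, 77 and 116 by the per-probe test before and after adjustment, and 136 to 412 when single arrays were left out (412 without IFN-β replicate 2). The cause of these shifts was not tested.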
